A study of Mus musculus with 29 samples.

Results

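High endothelial venule and lymphatic genes are described here across 14 libraries of kidney, tertiary lymphoid structures (TLS) and lymph node. The set held 8 genes, listed by name as known genes of these vessels at a time when earlier results of these data were known, and all 8 were among the 13982 genes of the table. It comprised Glycam1, Madcam1, Chst4 and Fut7 for high endothelial venules, and Lyve1, Prox1, Pdpn and Flt4 for lymphatic vessels.

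The mice were lupus-prone NZB/W animals, the F1 cross of New Zealand black and New Zealand white, which all groups shared. Proteinuric mice H6, H20, H115 and H117, aged 39, 36, 25 and 32 weeks, gave 4 kidney libraries, 3 TLS libraries (mice H6, H20 and H115) and 3 lymph node libraries (mice H6, H20 and H117). The other lymph nodes were 3 libraries of mice positive for anti-dsDNA antibody, aged 28, 29 and 18 weeks, and 1 library labelled young, from an animal aged 4 weeks. TLS were cut by hand under a loupe out of the same kidneys that gave the kidney libraries, so neighbouring tissue could come with them. Poly(A) RNA was sequenced on an Ion Torrent PGM. For the antibody-positive lymph nodes another purification kit was used than for all other RNA, so disease stage and kit cannot be told apart there.

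High endothelial venules are the blood vessels through which naive lymphocytes enter lymph nodes. Their tall endothelial cells carry sialomucins, such as the product of Glycam1, whose sugar chains are fucosylated by Fut7 and sulfated by Chst4, and lymphocytes roll on these sugars. Madcam1 encodes the ligand of the integrin made with Itgb7 and belongs to mucosal venules. Lymphatic vessels, which drain the node, are set by the transcription factor Prox1, respond to VEGF-C through the receptor Flt4, and carry the hyaluronan receptor Lyve1 and the glycoprotein Pdpn. Lyve1 is also made by some tissue macrophages, and Pdpn by kidney podocytes and lymph node reticular cells.

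The libraries held between 343825 and 443379 reads, and between 152422 and 396820 outside ribosomal RNA genes. Ribosomal RNA took 59.6% of the reads in the kidney of mouse H117, 32.7% in the lymph node of mouse H6 and 24.6% in the TLS of mouse H115, and at most 7.57% in the others. Levels are therefore given as reads and as reads per 1000000 reads outside ribosomal RNA genes (rpm). The library labelled young stood apart from its label, since antibody genes took 21.4% of its reads outside ribosomal RNA, and it is described without a test. At these depths a gene without a read in a group could still have had a level of up to 2.52 rpm in kidney, 2.74 in TLS, 2.95 in proteinuric lymph node, 2.57 in antibody-positive lymph node and 8.36 in the young library, which is what 3 reads are worth. Intervals and such limits cover counting error only, and PCR copies could not be told from separate molecules. In pieces of tissue, fewer cells of a type and less RNA per cell cannot be told apart.

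The promoters of 2 members are shown because Glycam1 was the member with by far the highest level and the only one that passed the test in TLS against kidney, whereas Madcam1, the other adhesion ligand of the set, was almost without reads in TLS. Each sequence holds the 250 bases before the RefSeq start of the gene in GRCm38.p6, and capitals mark the motifs found.
Glycam1, chr15:103565082-103565331, minus strand: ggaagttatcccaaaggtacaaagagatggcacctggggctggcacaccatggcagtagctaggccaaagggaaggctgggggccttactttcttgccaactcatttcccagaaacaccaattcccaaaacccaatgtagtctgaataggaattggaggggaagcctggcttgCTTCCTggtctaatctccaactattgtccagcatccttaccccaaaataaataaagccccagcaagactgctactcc
Madcam1, chr10:79664309-79664558, plus strand: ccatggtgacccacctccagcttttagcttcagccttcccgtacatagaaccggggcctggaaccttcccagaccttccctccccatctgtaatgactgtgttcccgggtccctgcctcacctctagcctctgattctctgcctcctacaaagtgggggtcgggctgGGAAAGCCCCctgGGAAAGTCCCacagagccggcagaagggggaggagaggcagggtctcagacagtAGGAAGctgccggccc

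Searched on both strands were the TATA box TATAAA, the ETS core AGGAAG, the nuclear receptor motif TGACCT and the NF-kB consensus. The Glycam1 sequence held 1 ETS core, on the reverse strand at -77 to -72 from the start. The Madcam1 sequence held 2 matches to the NF-kB consensus at -83 to -74 and -70 to -61, which do not overlap, and 1 ETS core at -16 to -11. Of 32851 promoters of this length, 29.5% held the ETS core, 3.90% the NF-kB consensus, 12.4% the TATA box and 14% the nuclear receptor motif. RefSeq gave promoters for 7 of the 8 members. Among the others an ETS core stood in 1 of 2 Fut7 promoters. On the reverse strand, a TATA box stood in 1 of 2 Prox1 promoters and the nuclear receptor motif in that of Pdpn. Such matches are letters in a window and no measurement of binding.

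Glycam1 (ENSMUSG00000022491, GRCm38 chr15:103562759-103565081) encodes the secreted sialomucin that carries sugars on which lymphocytes roll. It was detected in 1 of 4 kidneys, in all TLS and at a high level in all lymph nodes. In kidney its reads were 0, 6, 0 and 0 in mice H6, H20, H115 and H117. In TLS they were 320, 193 and 114 in mice H6, H20 and H115, or 823, 522 and 341 rpm. In proteinuric lymph node they were 1103, 1793 and 2180 in mice H6, H20 and H117, or 3762, 4679 and 6374 rpm. Every TLS library thus lay above every kidney, the highest kidney being mouse H20 with 17.1 rpm, and below every lymph node. The antibody-positive lymph nodes had 7568, 5890 and 3811 rpm and overlapped the proteinuric ones. The young library had 8955 rpm (95% Wilson interval 8652 to 9268), above all other lymph nodes.

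The tissues of proteinuric mice were compared to ask how far TLS resembled lymph node and differed from the kidney around them. The test was limma on log2(value + 1) of the deposited normalized signal, fitted to the 7382 genes whose mean signal reached 5 in the 10 proteinuric libraries, with p-values adjusted over all of these genes. Fold changes on this scale understate the change of low genes. The 3 comparisons between tissues share libraries and are not independent of each other. Of the 8 members only Glycam1 and Pdpn passed the filter on low values, so their number among the genes called says nothing about the other 6.

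Glycam1 was up-regulated in TLS over kidney by 5.87 on the log2 scale (SE 0.46, limma adjusted p = 2.88e-05). Its normalized signal was 183 ± 78.1 (SD, n = 3) in TLS and 2.43 ± 2.35 (SD, n = 4) in kidney. The summed level of a gene in a group, in rpm, is its summed reads over the summed reads outside ribosomal RNA genes. By this measure TLS held 114 times the kidney level (95% counting interval 51.9 to 311). All kidney reads came from mouse H20. Without it the kidneys held no read, and TLS was at least 160-fold higher than the level of 3 reads over the other 3 kidneys. All 22 alternative settings called Glycam1 here, with adjusted p between 6.73e-16 and 0.00187. It was the 1 member called higher in TLS, beside 8.62% of all genes tested, and no member was called lower, beside 6.07%.

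Glycam1 was higher in proteinuric lymph node than in TLS by 3.28 on the log2 scale (SE 0.49, limma adjusted p = 0.000861). The signal in lymph node was 1688 ± 83.2 (SD, n = 3), and the summed level was 8.69 times that of TLS (95% counting interval 8.00 to 9.46). It was the 1 member called higher in lymph node than in TLS, beside 1.69% of all genes tested. Against kidney, lymph node was higher by 9.15 on the log2 scale (SE 0.46, limma adjusted p = 1.20e-07), beside 20.8% of genes called higher. All 22 and all 23 alternatives of these comparisons called it.

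**Figure D1:**
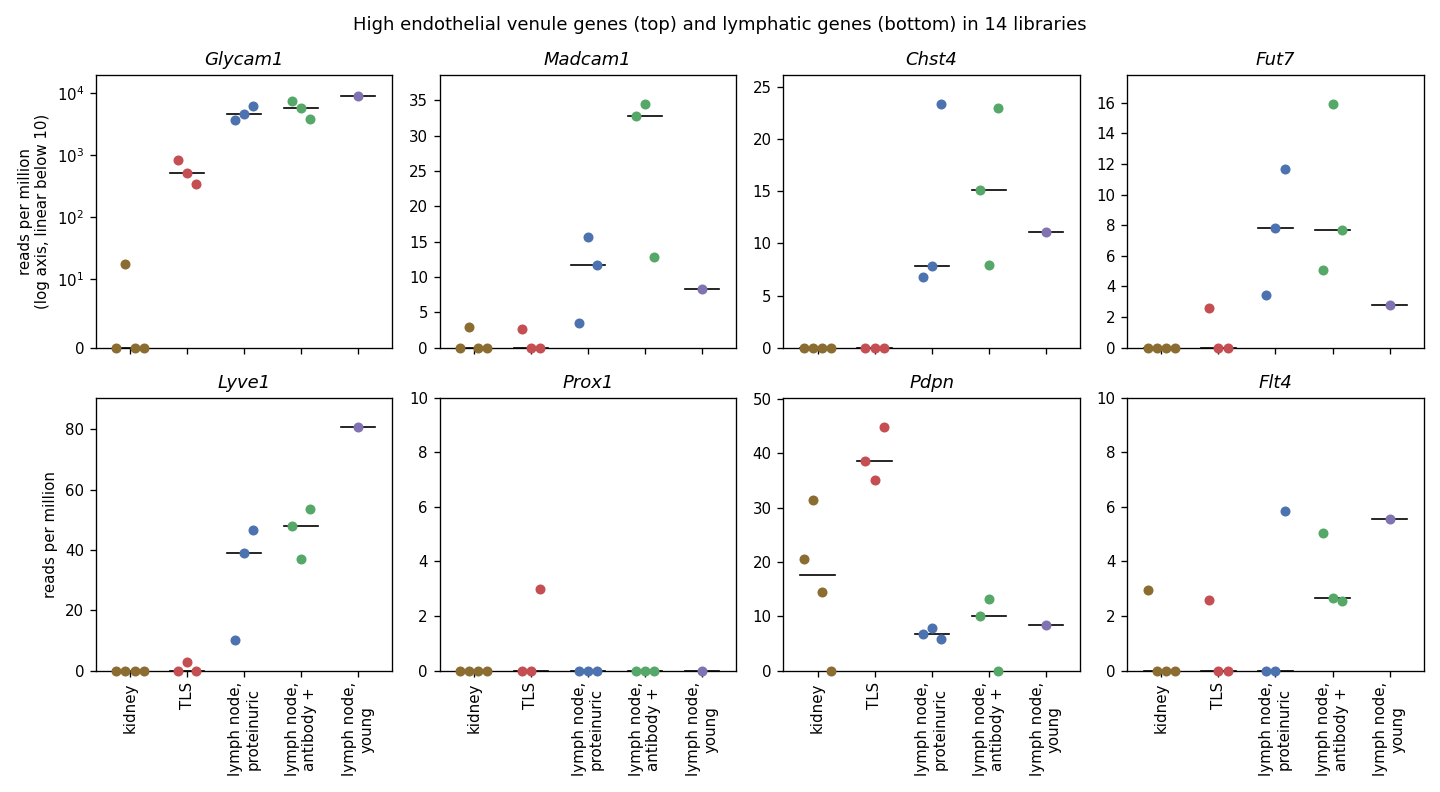
Level of each of the 8 genes in each of the 14 libraries, in rpm (outside ribosomal RNA genes), by tissue and disease stage; points are libraries and black lines group medians. The Glycam1 axis is logarithmic above 10 and linear below it. Glycam1 steps up from kidney through TLS (341 to 823) to lymph node (3762 to 8955), Lyve1, Madcam1, Chst4 and Fut7 have reads almost only in lymph node, and Pdpn is highest in TLS (35.1 to 44.9).

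Chst4 (ENSMUSG00000035930, chr8:110029153-110039740) encodes the sulfotransferase that sulfates these sugars in high endothelial cells. It had no read in any kidney or TLS library. In proteinuric lymph node it had 2, 3 and 8 reads in mice H6, H20 and H117, or 6.82, 7.83 and 23.4 rpm, and in antibody-positive lymph node 15.1, 7.96 and 23.0 rpm. All lymph nodes, the young one with 4 reads included, lay above all kidney and TLS libraries. Against the level that 3 reads would give, proteinuric lymph node was at least 5.06-fold higher than kidney and at least 4.65-fold higher than TLS.

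Fut7 (ENSMUSG00000036587, chr2:25423267-25426374) encodes the fucosyltransferase of these sugars, which leukocytes also make. It had no read in kidney and 1 read in TLS, in mouse H6. Proteinuric lymph node gave 1, 3 and 4 reads (3.41, 7.83 and 11.7 rpm), and antibody-positive lymph node 5.04, 15.9 and 7.66 rpm. By rpm the proteinuric lymph nodes did not overlap TLS, where the single read was worth 2.57 rpm. The lymph node of mouse H6 also had 1 read, in a library with fewer reads outside ribosomal RNA, so its separation rests on depth alone. Their summed level was at least 3.11-fold higher than that of kidney and 8.59 times that of TLS, with a counting interval from 1.15 to 381.

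Madcam1 (ENSMUSG00000020310, chr10:79664559-79668537) encodes the mucosal addressin. Kidney held 1 read, in mouse H20, and TLS 1 read, in mouse H6. Proteinuric lymph node held 1, 6 and 4 reads in mice H6, H20 and H117 (3.41, 15.7 and 11.7 rpm) and antibody-positive lymph node 13, 13 and 5 (32.8, 34.5 and 12.8 rpm). By rpm every lymph node was above every kidney and TLS library, the lymph node of mouse H6 by less than 1 rpm. That library had 1 read, as did the kidney of mouse H20 and the TLS of mouse H6, and fewer reads outside ribosomal RNA. Its separation from them thus rests on depth alone. Over TLS the summed level in proteinuric lymph node was 11.8 times higher, and the single TLS read left a counting interval from 1.72 to 508.

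Lyve1 (ENSMUSG00000030787, chr7:110850607-110863239) encodes the hyaluronan receptor of lymphatic endothelium and some macrophages. Kidney gave no read and TLS 1 read, in mouse H20. Proteinuric lymph node gave 3, 15 and 16 reads in mice H6, H20 and H117, or 10.2, 39.1 and 46.8 rpm. Antibody-positive lymph node had 47.9, 37.1 and 53.6 rpm, and the young library 80.8 rpm (95% Wilson interval 56.3 to 116). No lymph node overlapped kidney or TLS, and the lymph node of mouse H6 was the lowest of the 7. The summed level in proteinuric lymph node was at least 13.2-fold higher than in kidney and 36.5 times that in TLS, with a counting interval from 6.12 to 1483.

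Macrophage genes (Csf1r, Adgre1, Cd68, C1qa, C1qb and Mrc1, summed) were read in all tissues, at 295 to 1271 rpm in kidney, 1161 to 2833 in TLS and 1501 to 2889 in proteinuric lymph node. This sum covers macrophages in general and does not single out those that make Lyve1. Their part in the Lyve1 level was not tested.

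Prox1 (ENSMUSG00000010175, chr1:190118035-190170714), the transcription factor that lymphatic endothelium depends on, had 1 read in the TLS of mouse H115 and none in the other 13 libraries. An antisense gene overlaps it, and since the counting of strand is not given in the sources used here, the origin of this read is uncertain. Flt4 (ENSMUSG00000020357, chr11:49609263-49652739), the receptor of VEGF-C and VEGF-D, had 1 read in kidney, 1 in TLS, 2 in proteinuric lymph node, 4 in antibody-positive lymph node and 2 in the young library. Neither gene could be ordered between tissues at this depth. The 2 members that define lymphatic endothelium most closely thus stayed at or near the limit of detection in lymph node as well.

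Pdpn (ENSMUSG00000028583, chr4:143267431-143299564), the membrane glycoprotein of lymphatic endothelium, podocytes and reticular cells, was the 1 member with its highest level in TLS. In kidney it had 7, 11, 5 and 0 reads in mice H6, H20, H115 and H117, or 20.6, 31.3, 14.5 and 0 rpm. In TLS it had 15, 13 and 15 reads in mice H6, H20 and H115, or 38.6, 35.1 and 44.9 rpm. In proteinuric lymph node it had 2, 3 and 2 reads, or 6.82, 7.83 and 5.85 rpm. All TLS libraries lay above all kidneys and all lymph nodes, while the kidney of mouse H117, without a read, lay below the proteinuric lymph nodes.

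The antibody-positive lymph nodes had 10.1, 13.3 and 0 rpm of Pdpn, a range that overlapped kidney and proteinuric lymph node. Its normalized signal was 14.005 ± 3.24 (SD, n = 3) in TLS, 6.48 ± 3.46 (SD, n = 4) in kidney and 3.52 ± 0.987 (SD, n = 3) in proteinuric lymph node.

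Pdpn did not pass the test in TLS against kidney, with a log2 difference of 1.15 (SE 0.43, limma adjusted p = 0.1003), nor under any of 21 alternatives (adjusted p 0.0535 to 0.264). It was lower in lymph node than in TLS by a log2 difference of -1.73 (SE 0.46, limma adjusted p = 0.0303), the 1 member called lower there beside 8.87% of all genes tested. This call was lost whichever library was left out (limma adjusted p 0.0563 to 0.119) and with the mouse as a fixed replicate block (-1.29, limma adjusted p = 0.101). Lymph node against kidney gave a log2 difference of -0.59 (SE 0.43, limma adjusted p = 0.297), so that no member was called lower there, beside 23.0% of all genes. Without the kidney of mouse H117, whose reads were mostly ribosomal RNA, that difference was -1.01 (limma adjusted p = 0.0230).

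Markers of other cell types, of which podocytes and reticular cells make Pdpn, were summed in the same tissues. Per library, 5 podocyte genes summed to 66.5 to 136 rpm in kidney, 23.9 to 48.7 in TLS and 13.6 to 61.4 in proteinuric lymph node. Likewise 7 reticular stroma genes summed to 2.89 to 356 rpm in kidney, 194 to 766 in TLS and 570 to 827 in proteinuric lymph node. Genes of urothelium, the lining of the renal pelvis, summed to 0 to 56.0 rpm in kidney, 457 to 2047 in TLS and 0 in proteinuric lymph node, and 5 of 5 tested were called higher in TLS than in kidney by limma. The part of these cells in the Pdpn level was not tested.

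The 6 members below the filter were tested in the same limma fit without a filter, over 13467 genes. Against TLS, 5 members were called higher in proteinuric lymph node, beside 1.57% of all genes, and Pdpn lower, beside 5.20%. The 5 were Glycam1, Lyve1 (log2 difference 2.45, SE 0.37, adjusted p = 0.000830), Chst4 (1.65, SE 0.29, adjusted p = 0.00267), Madcam1 (1.30, SE 0.32, adjusted p = 0.0236) and Fut7 (1.08, SE 0.27, adjusted p = 0.0281). Flt4 gave 0.23 (adjusted p = 0.712) and Prox1 -0.09 (adjusted p = 0.895).

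The calls of Glycam1 and Lyve1 held in all 10 other fits without a filter. That of Chst4 held in all but the edgeR test on reads (adjusted p = 0.0579), apart from DESeq2, which gave it no adjusted p. Madcam1 and Fut7 each held in 2 of 9 such fits, and in edgeR's test on reads their adjusted p was 0.151 and 0.281.

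Against kidney the same 5 members were called higher in lymph node without a filter, beside 15.4% of all genes: Glycam1, Lyve1 (2.46, SE 0.34, limma adjusted p = 8.51e-05), Chst4 (1.48, adjusted p = 0.000750), Madcam1 (1.18, adjusted p = 0.00728) and Fut7 (1.09, adjusted p = 0.00429). The edgeR test on reads called all 5, and DESeq2 called Glycam1 and Lyve1. TLS against kidney without a filter called Glycam1 alone of the 8, beside 4.99% of all genes, and the 6 members other than Glycam1 and Pdpn had limma adjusted p between 0.804 and 0.991. With at most 1 read in TLS for each of the 6, differences between TLS and kidney were not detectable at this depth.

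**Figure D2:**
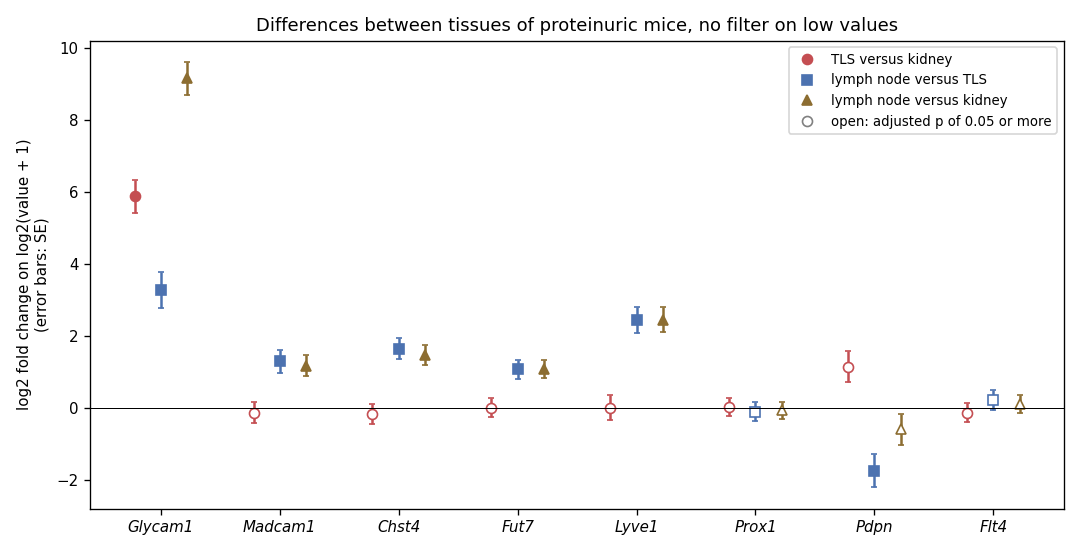
Log2 difference ± SE of each of the 8 genes in TLS over kidney, lymph node over TLS and lymph node over kidney, from the limma fit without a filter on low values; open symbols have an adjusted p of 0.05 or more. Glycam1 has the highest log2 difference in each of the 3 comparisons of this fit, with an error bar that meets that of Lyve1 in lymph node over TLS, 4 low genes lie above 0 in both lymph node comparisons and near 0 in TLS over kidney, and Pdpn is the only one of the 8 called below 0 in lymph node over TLS.

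To compare genes with each other, the summed level of each gene in a group was divided by exon length. Per kilobase of exon, proteinuric lymph node held 2337 rpm of Glycam1, followed by Lyve1 at 11.4, Madcam1 at 7.52, Chst4 at 5.59, Pdpn at 3.78, Fut7 at 3.34 and Flt4 at 0.239. TLS held 269 rpm per kilobase of Glycam1 and 21.6 of Pdpn, and at most 0.637 of any other member. In kidney Pdpn came first with 10.7 and Glycam1 had 2.37. The order of the members thus differed by tissue, with Pdpn above Glycam1 in kidney and far below it in TLS and lymph node.

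Because Glycam1 exceeded the other venule genes by so much, reads of those genes in TLS were set beside the number that lymph node proportions would give. If TLS held the other genes at the lymph node ratio to Glycam1, its 627 Glycam1 reads would come with 1.36 reads of Madcam1, 1.61 of Chst4, 0.988 of Fut7 and 4.20 of Lyve1. The reads seen were 1, 0, 1 and 1, with 95% Poisson intervals of 0.0253 to 5.57 for 1 read and up to 3.69 for none. For Madcam1, Chst4 and Fut7 the numbers lie under 3.69, the upper end for no read, so even 0 reads could not have shown a shortfall. For Lyve1 the 4.20 lay within the interval of its 1 read. At this depth these counts do not tell whether TLS kept the lymph node proportions to Glycam1. Pdpn, with 43 reads (interval 31.1 to 57.9), lay far above the 0.865 that its ratio to Glycam1 would give.

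Set against 11 genes of blood endothelium in general, such as Pecam1 and Cdh5, the picture differed. At the lymph node ratio to these genes, TLS would have held 4138 reads of Glycam1, 8.97 of Madcam1, 10.6 of Chst4, 6.52 of Fut7 and 27.7 of Lyve1. The reads seen, 627, 1, 0, 1 and 1, lay below these numbers, and so did the upper ends of their counting intervals. The numbers rest on 11, 13, 8 and 34 lymph node reads of Madcam1, Chst4, Fut7 and Lyve1 and carry a counting error of their own. Kidney tissue also came with TLS. Genes of the thick limb and distal tubule summed to 2857 to 8199 rpm in kidney, 2133 to 3719 in TLS and 0 in proteinuric lymph node. The blood endothelial reads of TLS can thus include kidney vessels, whose part was not tested.

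**Figure D3:**
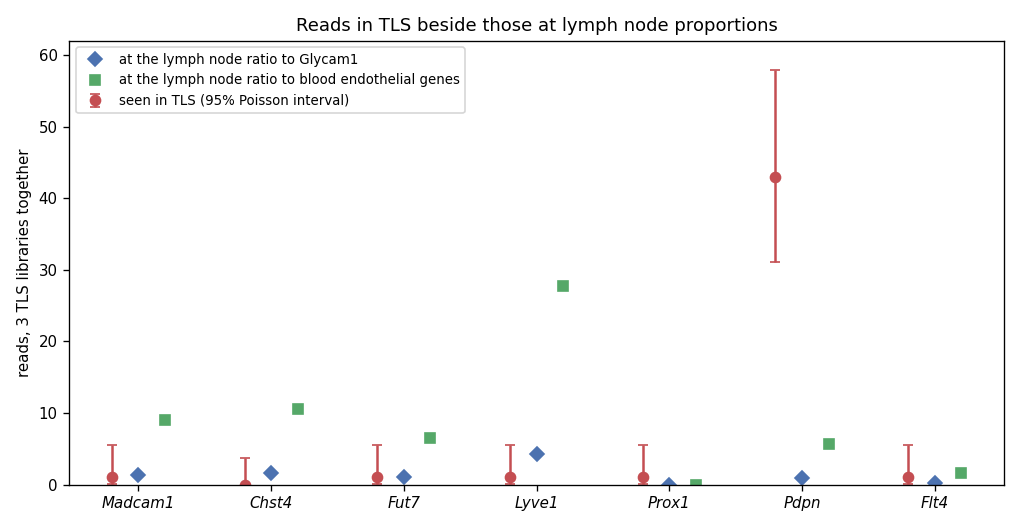
Reads of 7 genes (all members but Glycam1) summed over the 3 TLS libraries, with 95% Poisson intervals, beside the reads that the lymph node ratio to Glycam1 (diamonds) or to blood endothelial genes (squares) would give. For Madcam1, Chst4, Fut7 and Lyve1 the diamonds fall inside the intervals and the squares above them, and Pdpn (43 reads) lies above both. For Madcam1, Chst4 and Fut7 the diamonds would also fall inside the interval of 0 reads.

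The summed reads of the 4 venule genes were also expressed as a percent of the reads of the 11 blood endothelial genes in the same library. The ratio was 0%, 3.15%, 0% and 0% in the kidneys of mice H6, H20, H115 and H117, and 164%, 105% and 113% in the TLS of mice H6, H20 and H115. It was 1334%, 740% and 835% in the proteinuric lymph nodes of mice H6, H20 and H117. Kidney, TLS and lymph node did not overlap, and nearly all of these reads were Glycam1. The part of kidney vessels in the blood endothelial reads of TLS was not tested here either. The mean of proteinuric lymph node was 7.61 times that of TLS, and stayed between 6.18 and 8.90 times when any of these 6 libraries was left out. The level of the blood endothelial genes themselves was 315 to 792 rpm in kidney, 302 to 504 in TLS and 283 to 769 in proteinuric lymph node, and 0 of 9 tested were called in TLS against kidney or lymph node against TLS.

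For the lymphatic members without Pdpn, reads were 0.372% of the endothelial reads in the kidney of mouse H6 and 0% in the other kidneys. TLS had 0.510%, 0.543% and 0.990%, each from 1 read, and proteinuric lymph node 3.61%, 6.15% and 6.84%. The lymph nodes lay above TLS and kidney without overlap, and Lyve1 gave most of their reads. Pdpn followed another order, with 2.60%, 4.95%, 4.42% and 0% in kidney, 7.65%, 7.07% and 14.9% in TLS and 2.41%, 1.23% and 0.760% in lymph node.

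**Figure D4:**
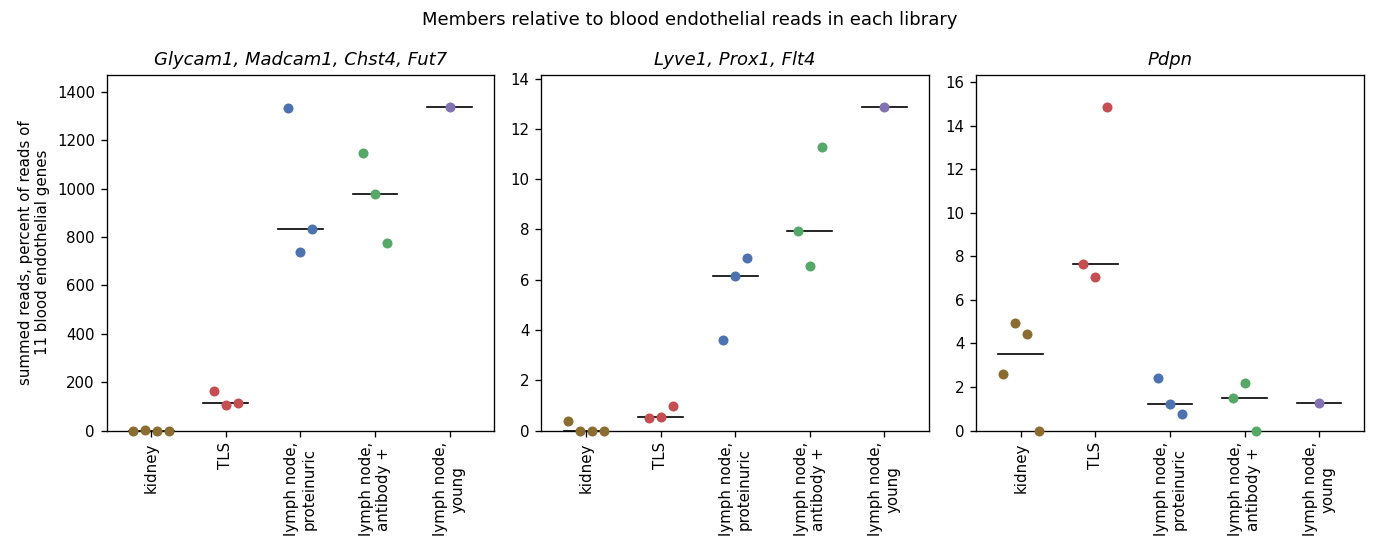
Reads of the 4 venule genes, of Lyve1, Prox1 and Flt4 summed, and of Pdpn, as a percent of the reads of 11 blood endothelial genes in each of the 14 libraries, by group. Venule genes step up from kidney (0 to 3.15%) through TLS (105 to 164%) to proteinuric lymph node (740 to 1334%). The sum of Lyve1, Prox1 and Flt4 is higher in proteinuric lymph node (3.61 to 6.84%), where most reads are Lyve1, than in TLS (0.510 to 0.990%). Each TLS library has 1 read in this sum. Pdpn is highest in TLS.

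Lymph nodes of proteinuric and antibody-positive mice were compared to ask whether the members changed with disease stage, in a fit of 6810 genes in which Glycam1, Madcam1, Chst4 and Lyve1 passed the filter. No member was called in either direction, beside 0% of genes called higher and 0% called lower. Limma called 0 genes here (215 at an unadjusted p under 0.05), edgeR 0 (223) and DESeq2 13 (149), none of them a member. Madcam1 had the largest log2 difference of the 4, -1.13 in proteinuric over antibody-positive lymph node (SE 0.38, limma adjusted p = 0.998). Its summed reads were 11 against 31, a ratio of levels of 0.406 with a counting interval from 0.184 to 0.830, and the 2 groups overlapped.

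Lyve1 differed by -0.76 (SE 0.40, adjusted p = 0.998) and its ratio of summed levels was 0.721, with a counting interval from 0.455 to 1.13. Glycam1 differed by -0.36 (SE 0.44, adjusted p = 0.998) and Chst4 by -0.36 (SE 0.44, adjusted p = 0.998). The mean of the venule sum relative to blood endothelial genes was 969% in proteinuric and 966% in antibody-positive lymph node.

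Genes that act with the members were counted by list in the same limma fits. The list counts stand beside the shares over all genes tested. In TLS against kidney 8.62% were called higher and 6.07% lower. In lymph node against TLS the shares were 1.69% and 8.87%, and in lymph node against kidney 20.8% and 23.0%. Of 6 carriers of such sugars in the table, 4 were tested. Glycam1 was called higher and Podxl, a sialomucin that podocytes carry in large amounts, lower in TLS than in kidney (-1.46, limma adjusted p = 0.00945). Podxl and Emcn, a sialomucin of endothelium in general, were also lower in lymph node than in TLS (-2.04 and -2.01, limma adjusted p = 0.00198 and 0.0166). The carriers called thus went in opposite directions in both comparisons. The median of the 4 in TLS over kidney was 0.05 on the log2 scale, against -0.01 over all genes.

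Of 8 enzymes that build these sugars, 3 were tested and none was called in TLS against kidney or lymph node against TLS. Gcnt1, a branching enzyme of such sugars, was lower in lymph node than in kidney (-2.78, limma adjusted p = 0.00229). The venule enzyme Chst2 gave 1, 1 and 0 reads in the TLS of mice H6, H20 and H115, and Fut4 gave 2, 0 and 0. Neither had a read in kidney. In the proteinuric lymph nodes of mice H6, H20 and H117, Chst2 gave 0, 2 and 5 reads and Fut4 0, 0 and 4. Such low counts do not order TLS and kidney.

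Receptors with which lymphocytes meet these vessels formed the next list. In TLS against kidney 4 of 4 tested were called higher, with a list median of 2.42 on the log2 scale. They were the CCL21 receptor Ccr7 (2.78, limma adjusted p = 0.000358), the integrin chain Itgb7, whose ligand Madcam1 had 1 read (2.53, limma adjusted p = 0.00818), Itgb2 (2.30, limma adjusted p = 0.0100) and Itgal (1.90, limma adjusted p = 0.0124). Reads of Itgb7 were 3, 7, 0 and 0 in kidney, 56, 21 and 9 in TLS and 28, 94 and 108 in proteinuric lymph node. Kidney lay below TLS and lymph node, which overlapped. In lymph node against TLS, Ccr7 (1.502, limma adjusted p = 0.0258) was called higher and no receptor lower. B-cell genes summed to 0 to 71.2 rpm in kidney and 865 to 1347 in TLS, and T-cell genes to 0 to 37.0 and 245 to 478. Their part in the receptor levels was not tested.

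Among other venule genes, 1 of 4 tested was called in TLS against kidney. This was Ccl21a, the chemokine that high endothelial, lymphatic and reticular cells display to Ccr7, with a log2 difference of 2.26 (limma adjusted p = 0.0120). Its reads were 3, 12, 3 and 0 in kidney, 54, 28 and 12 in TLS and 288, 981 and 660 in proteinuric lymph node. The lymph nodes were above all other libraries, whereas the TLS of mouse H115 equalled the kidney of mouse H20 in reads. Ccl21a was higher in lymph node than in TLS by 4.52 (limma adjusted p = 0.000210), and its values are uncertain because near-identical copies of the gene share reads. Ackr1, a chemokine receptor of venules, had no read in kidney or TLS and 0, 1 and 3 in proteinuric lymph node.

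Of 6 genes tested in the lymphotoxin pathway, which maintains high endothelial venules, Ltb was called higher in TLS than in kidney (4.32, limma adjusted p = 0.000145) and none was called in lymph node against TLS. In lymph node against kidney Ltb (5.27), Relb (1.83) and Nfkb2 (2.06) were called higher, beside 20.8% of all genes. The receptor Ltbr was called lower (-1.70, limma adjusted p = 0.000978), beside 23.0%.

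Of 12 lymphatic vessel genes in the table, members included, 6 were tested. In TLS against kidney Ccl21a and S1pr1, the sphingosine receptor that lymphocytes also carry (1.26, limma adjusted p = 0.0333), were called higher. In lymph node against TLS Ccl21a was higher, and Pdpn and Nr2f2, a transcription factor of veins and lymphatics, were lower (Nr2f2 -1.79, limma adjusted p = 0.00824). Both genes called higher in TLS are also made by other cells, and the defining members Prox1 and Flt4 had at most 1 read there. Of 5 lymphangiogenic ligand genes 1 was tested, Vegfa, which was called only in lymph node against kidney (-1.61, limma adjusted p = 0.00274).

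The genes with the profile nearest to a member were found by the root mean square difference of log2(value + 1) over the 14 libraries, after centring each gene, among 7160 genes. For Glycam1 they were Ccl21a (1.39), Mzb1 (1.69) and Cd79a (1.79), where the median gene differed by 4.03. For Lyve1 they were Vtn (0.306), Folr2 (0.402) and Siglec1 (0.433), against a median of 1.59. The median values of Vtn, Folr2 and Siglec1 were 0.848, 1.09 and 1.09 in TLS. In proteinuric lymph node they were 9.71, 14.5 and 15.2. For Pdpn they were Litaf (0.468), Mid1ip1 (0.482) and Pcolce (0.495), against a median of 1.06. Libraries share tissue and depth across genes, so these distances are descriptions.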

How the data were processed

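Reads of poly(A)-selected RNA came from an Ion Torrent PGM, and the authors mapped and counted them with CLC Genomics Workbench on GRCm38. They deposited a normalized signal per gene and library. Multiplied by the size factor of its library, 100% of the signal values were whole numbers (tolerance 1e-06), equal to reads plus 1, and reads were recovered from them. Positions are from GRCm38, promoters from RefSeq. The submitters' processing notes name BWA 0.6.2-r126, HTSeq, edgeR and limma under every sample, but the study's methods give BWA and HTSeq for the whole kidney samples, which were not analysed here.

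The 10 proteinuric libraries were fitted together, and the 2 stages of lymph node separately, with limma 3.58.1 (trend and robust moderation, R 4.3.3) on log2(value + 1) for genes whose mean value reached 5. Genes were called at a Benjamini-Hochberg adjusted p under 0.05. Neither fold changes nor sums were compared by set tests. Separate mice were the replicates. Alternatives were edgeR 4.0.16 quasi-likelihood and DESeq2 1.42.0 on the recovered reads, other filters, pseudocounts and scalings, the mouse as replicate block, and leaving out libraries. Mouse numbers are the same animal in each tissue. Deviations of same-mouse kidney and TLS libraries correlated (0.351, 0.364 and 0.454), those of kidney and lymph node between -0.335 and 0.202, and those of lymph node and TLS -0.266 and 0.0254. Libraries of different mice reached 0.361, 0.512 and 0.293 in these pairs of tissues. Intervals were exact Poisson or binomial, or Wilson where named.

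The members and gene lists were chosen with earlier results of these data known. All members are named, and from each list the called genes, up to 4 or all of 5 or fewer. Chst2, Fut4, Ackr1 and the reads of some listed genes were named after their values were seen. For members with a mean of at least 5 over the 14 libraries, the 3 genes of nearest profile are named, without antibody and T-cell receptor genes. One gene of the lists is not reported here, and counts leave it out. No gene of the milk protein list was in the table. The fits of TLS against kidney were also run on simulated counts in which only genes with a mean of at least 5 were changed. That simulation does not cover the fits without a filter, the low members or the pairing of mice.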

Additional observations from a re-analysis of the deposited data

Results flagged for a closer look

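In kidney, the venule genes relative to blood endothelial genes had 1 library far from the others: the kidney of mouse H20 reached 3.15%, from 6 Glycam1 reads and 1 Madcam1 read, and the other 3 kidneys had 0%. In all, 11 groups were examined in this way and 1 stood out. Chance marks about 1 group in 20, but that rate does not apply to this group, since the other 3 kidneys had no read of these genes.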

How the results depend on the processing

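Glycam1 kept its direction and its call in all 3 comparisons between tissues under every alternative that was run. The number of members called in lymph node against TLS was 2, and 6 with no filter, 5 with a mean value of at least 2, 1 with a mean of at least 10, 1 with the mouse as a fixed replicate block and 1 to 1 when a library was left out (each one lost Pdpn). In lymph node against kidney it was 1, and 5 with no filter, 4 with a mean of at least 2, 1 to 2 when a library was left out (2 without the kidney of mouse H117), and 2 with only these tissues fitted, without the 3 libraries of over 20 percent ribosomal RNA, or with all 7 lymph nodes. The other filters change which members are tested, and the cause of the other shifts was not tested. Over all genes, lymph node against TLS gave 780 calls, 911 with no filter and 569 with the fixed replicate block. Leaving out a library gave 480 to 977. In lymph node against kidney the calls were 3230, 4283 with no filter and 2648 to 3131 when a library was left out.

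Without a filter (alternatives chosen after seeing the data), lymph node against TLS went from 6 members called to 3 with edgeR, 3 with DESeq2, 3 to 5 when a library was left out and 3 with the paired fit, the mouse as replicate block. Lymph node against kidney went from 5 to 2 with DESeq2, and from 5 to 6 at most when a library was left out. Genes called in the vessel and homing lists numbered 9 in TLS against kidney and 4 to 10 when a library was left out (4 without the TLS of mouse H6). They numbered 7 in lymph node against TLS, 11 with no filter, 4 with a mean of at least 10 and 13 with all 7 lymph nodes. When a library was left out they numbered 4 to 7 (4 without the TLS of mouse H20 or the lymph node of mouse H117). Calls over all genes shifted as well. In TLS against kidney they went from 1084 to 530 without the TLS of mouse H6. In lymph node against TLS they went from 780 to 911 with no filter, 542 with a mean of at least 10 and 1280 with all 7 lymph nodes. They were 589 without the TLS of mouse H20 and 480 without the lymph node of mouse H117. The sum of all 4 lymphatic genes, Pdpn included, in lymph node over TLS was 0.664 times relative to blood endothelial genes and 0.966 by rpm. The replicate block changed no other call of a member in the fits with the filter. Over all genes, edgeR on the recovered reads called 830, 785 and 3186 genes in TLS against kidney, lymph node against TLS and lymph node against kidney, where limma called 1084, 780 and 3230. No result changed direction while called. Depth limits Madcam1, Chst4, Fut7, Prox1 and Flt4, with at most 31 reads in a group.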
